A study of Homo sapiens with 12 samples.

Results

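The comparison set control 22Rv-1 cells against control C4-2 cells, 2 human prostate cancer lines. It used the 6 control libraries of a series of 12, 3 of each line. C4-2 is a castration-resistant derivative of the LNCaP line. 22Rv-1 came from a relapsed CWR22 xenograft and is known for making ARv7, a splice variant that acts without hormone. The control C4-2 cells carried the lentivirus named lv-control and the control 22Rv-1 cells the one named lv-shcontrol. The other 6 libraries came from C4-2 cells made to express ARv7 and 22Rv-1 cells depleted of it. All 4 groups were infected with a lentivirus, and the series' design text names puromycin selection for the ARv7-changed cells. Each group was plated as triplicate dishes in RPMI medium with fetal bovine serum. The sources do not say how many selected cultures stood behind a group, so p-values measure the spread between dishes. The line and the control vector cannot be told apart.

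Prostate luminal cells depend on androgen signalling, which together with factors such as FOXA1 and HOXB13 switches on secretory genes such as KLK3, which encodes prostate-specific antigen. Tumours that escape hormone therapy can keep that programme or lose parts of it and take up features of neuroendocrine, mesenchymal or other cells. The 2 lines are common models of the castration-resistant state.

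Total counts ran from 13136228 to 14672948 per control library. Levels below are CPM, counts relative to the library total, with trimmed-mean (TMM) scaling factors computed over all 12 libraries. Values for a line are given in the order of replicates 1, 2 and 3, or as the mean ± SD over 3 dishes. A log2 difference is 22Rv-1 minus C4-2, with its standard error. Mitochondrially encoded genes held 3.94% to 4.66% of counts, and ribosomal protein genes held 9.28% to 10.7% in C4-2 and 6.81% to 7.13% in 22Rv-1. C4-2 replicate 3 stood farther from replicates 1 and 2 (chi-square per degree of freedom 13.0 and 7.15) than any other pair within a group (2.12 to 4.77). Every count of calls given for a gene list below was also made without that library.

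The luminal tissue label was checked with 9 markers, each detected in all 6 libraries, among them FOXA1, HOXB13, KRT8, KRT18, KLK2, KLK3 and FOLH1. Together they summed to 4526 to 4969 CPM in C4-2 and 4348 to 4381 CPM in 22Rv-1. Markers of other cells were low. Their sums were at most 4.86 CPM for leukocytes, 4.41 CPM for smooth muscle and 2.88 CPM for urothelium. Fibroblast markers summed to 8.78 to 10.2 CPM in C4-2 and 44.6 to 46.7 CPM in 22Rv-1, with FAP at 0 counts in all 6 libraries. Of 5 fibroblast markers tested 4 were higher in 22Rv-1 and 0 in C4-2, 80.0% in all against 83.4% over all genes. In the other 6 libraries 3 were higher in 22Rv-1 and 1 in C4-2. LUM, a collagen-binding proteoglycan, had 0 counts in C4-2 and 21.9, 20.6 and 24.0 CPM in 22Rv-1, and COL1A1, a chain of fibrillar collagen, had 8.13 ± 1.16 and 16.9 ± 1.26 CPM. Their part in the results was not tested. Endothelial markers summed to 15.3 to 18.3 CPM in C4-2 and 2.67 to 5.41 CPM in 22Rv-1, with CDH5 at 0 counts. ALB, the serum protein albumin of the liver, was at 0 counts in C4-2 and at 14.9, 15.5 and 15.8 CPM in 22Rv-1.

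The lines differed in most of the transcriptome. Of 14235 genes tested with edgeR's quasi-likelihood test, 11875 passed an adjusted p of 0.05, which is 83.4%. Of all genes tested, 6056 (42.5%) were higher in 22Rv-1 and 5819 (40.9%) were higher in C4-2. At least 2-fold differences were called for 3550 genes (24.9%) higher in 22Rv-1 and 2828 (19.9%) higher in C4-2, and 10-fold differences for 1406 and 651. The median log2 difference over all genes was 0.04, and the median size was 0.88. With total counts in place of TMM factors the median moved to 0.18. The split then moved from 6056 against 5819 genes to 6792 against 5140. Each count of a gene list below is to be read against these shares.

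**Figure D1:**
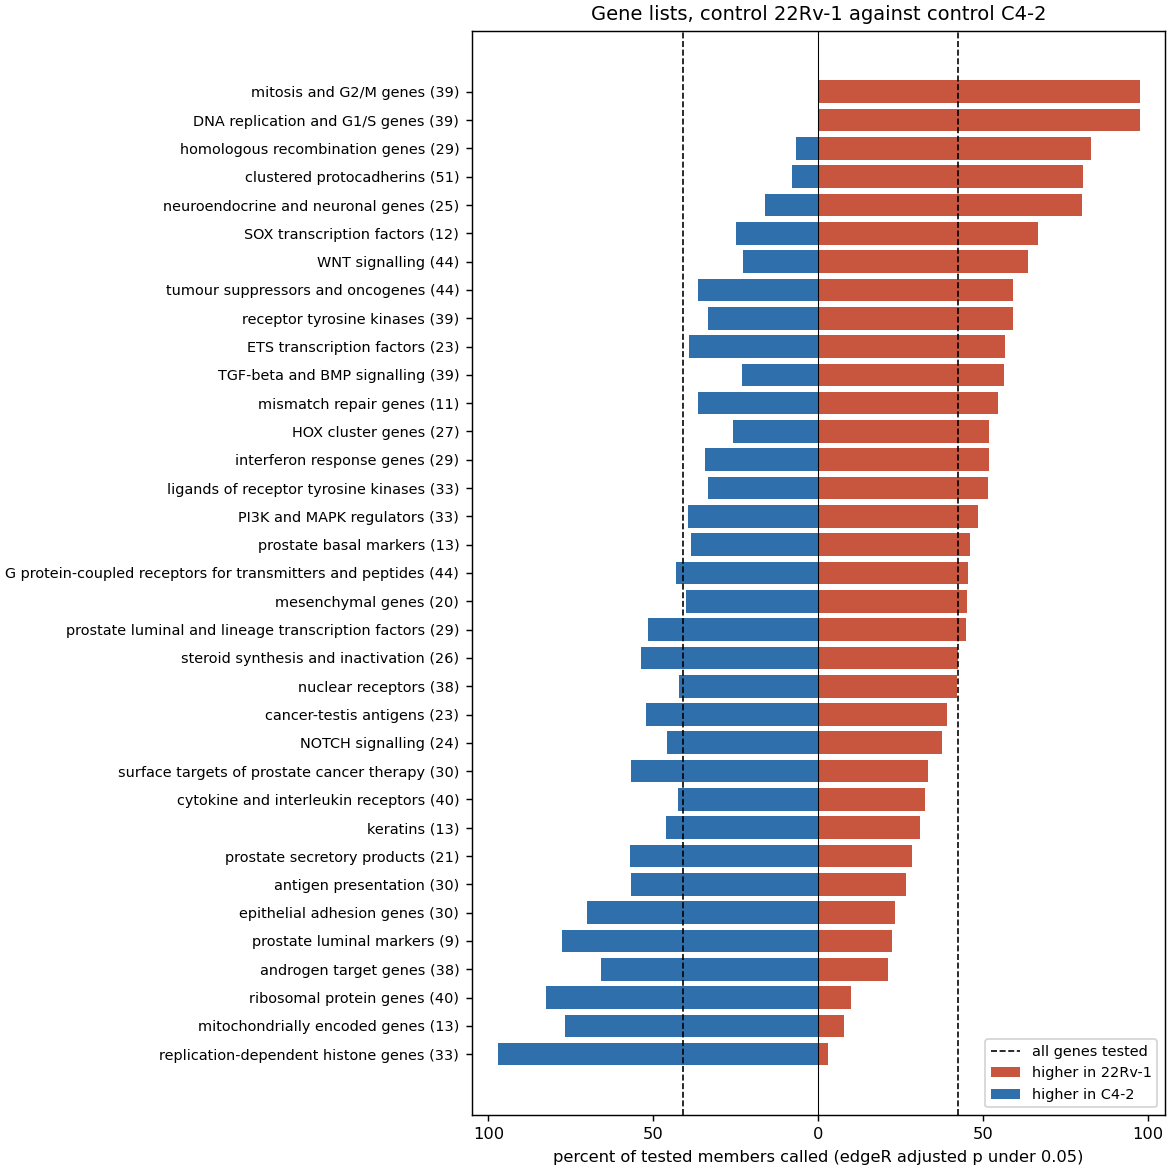
For each gene list drawn, the percent of its tested members called higher in control 22Rv-1 (red, to the right) and higher in control C4-2 (blue, to the left), with the number tested in brackets. Not every list is drawn, and those with few tested members are among those left out. Dashed lines mark the shares over all genes, 42.5% and 40.9%; the cell cycle lists lie to the right of them and the histone genes to the left.

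Most genes known as targets of androgen signalling were higher in C4-2. Of 38 tested, 25 were higher in C4-2 and 8 in 22Rv-1, with a median log2 difference of -0.73. KLK3 had 629, 672 and 715 CPM in C4-2 and 15.8, 15.5 and 13.6 CPM in 22Rv-1 (log2 -5.49 ± 0.08). TMPRSS2, an androgen-driven surface protease, had 977, 1002 and 1016 CPM in C4-2 and 50.6, 46.5 and 48.5 CPM in 22Rv-1 (log2 -4.36 ± 0.06). ABCC4, an organic anion exporter, had 820.1, 805 and 778 CPM in C4-2 and 21.9, 19.9 and 21.8 CPM in 22Rv-1. These targets were chosen by their values, so ranges far apart were set by that choice and are not a further result. TSC22D3, the glucocorticoid-induced leucine zipper gene, had 1881 ± 114 CPM in C4-2 and 80.8 ± 4.37 CPM in 22Rv-1. KLK2, the neighbour of KLK3, differed far less, at 104 ± 10.2 CPM in C4-2 and 50.2 ± 4.71 CPM in 22Rv-1; reads can be split between these similar genes. KLK4, a further kallikrein, stood at 481, 529.5 and 524 CPM in C4-2 and 509.5, 493 and 470.0 CPM in 22Rv-1, and its difference did not pass the test (edgeR adjusted p = 0.285).

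The 8 targets that went the other way included large differences too. FKBP5, a cochaperone that is a classical target of androgens and glucocorticoids, had 102, 102 and 97.0 CPM in C4-2 and 911, 916 and 979 CPM in 22Rv-1 (log2 3.22 ± 0.06). ZBTB10, a zinc finger repressor, had 90.8, 87.9 and 80.5 CPM in C4-2 and 825, 827 and 915 CPM in 22Rv-1 (log2 3.31 ± 0.06). PMEPA1, a membrane inhibitor of TGF-beta signalling, had 219 ± 26.9 CPM in C4-2 and 1047 ± 20.7 CPM in 22Rv-1. SLC38A4, an amino acid transporter and the largest of these differences, had 5.57 ± 0.665 CPM in C4-2 and 72.3 ± 6.04 CPM in 22Rv-1. These genes were chosen in the same way, so the same limit holds for them.

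Secretory products of the luminal cell followed the larger part of the target list. Of 21 tested, 12 were higher in C4-2 and 6 in 22Rv-1 (median log2 -1.51). SPON2, a secreted matrix protein, had 883, 997 and 1114 CPM in C4-2 and 2.33, 1.79 and 1.47 CPM in 22Rv-1, a log2 difference of -9.06 ± 0.11. PLA2G2A, a secreted phospholipase, had 82.8, 89.1 and 94.2 CPM in C4-2 and 0 counts in all 3 libraries of 22Rv-1. Taking 3 counts in the whole group as the floor, it was at least 1144-fold higher in C4-2. TFF3, a trefoil peptide of mucous secretion, was likewise at 0 counts in 22Rv-1 and at 7.41 ± 1.21 CPM in C4-2, at least 95.4-fold higher.

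Lineage transcription factors split nearly evenly, 13 higher in 22Rv-1 and 15 higher in C4-2 of 29 tested. Their median log2 difference was -0.13 with TMM factors and 0.02 with total counts, so its sign depended on the scaling. The pioneer factors FOXA1 and HOXB13 were less than 2-fold apart. FOXA1 had 562 ± 14.3 CPM in C4-2 and 392 ± 9.83 CPM in 22Rv-1, and HOXB13 had 576 ± 71.7 and 311 ± 12.6 CPM. EHF, an epithelial ETS factor, was far apart, with 1467, 1391 and 1254 CPM in C4-2 and 10.1, 10.2 and 11.96 CPM in 22Rv-1 (log2 -6.99 ± 0.08). On the other side, TRPS1, a GATA-type repressor, had 23.8 ± 2.50 CPM in C4-2 and 173 ± 6.08 CPM in 22Rv-1. SOX9, a factor of progenitor and duct cells, had 0.510, 0.811 and 1.09 CPM in C4-2 and 23.8, 21.2 and 23.1 CPM in 22Rv-1. HMGA2, an oncofetal chromatin protein, had 0 counts in C4-2 and 5.34, 6.73 and 6.75 CPM in 22Rv-1, at least 93.0-fold higher there.

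**Figure D2:**
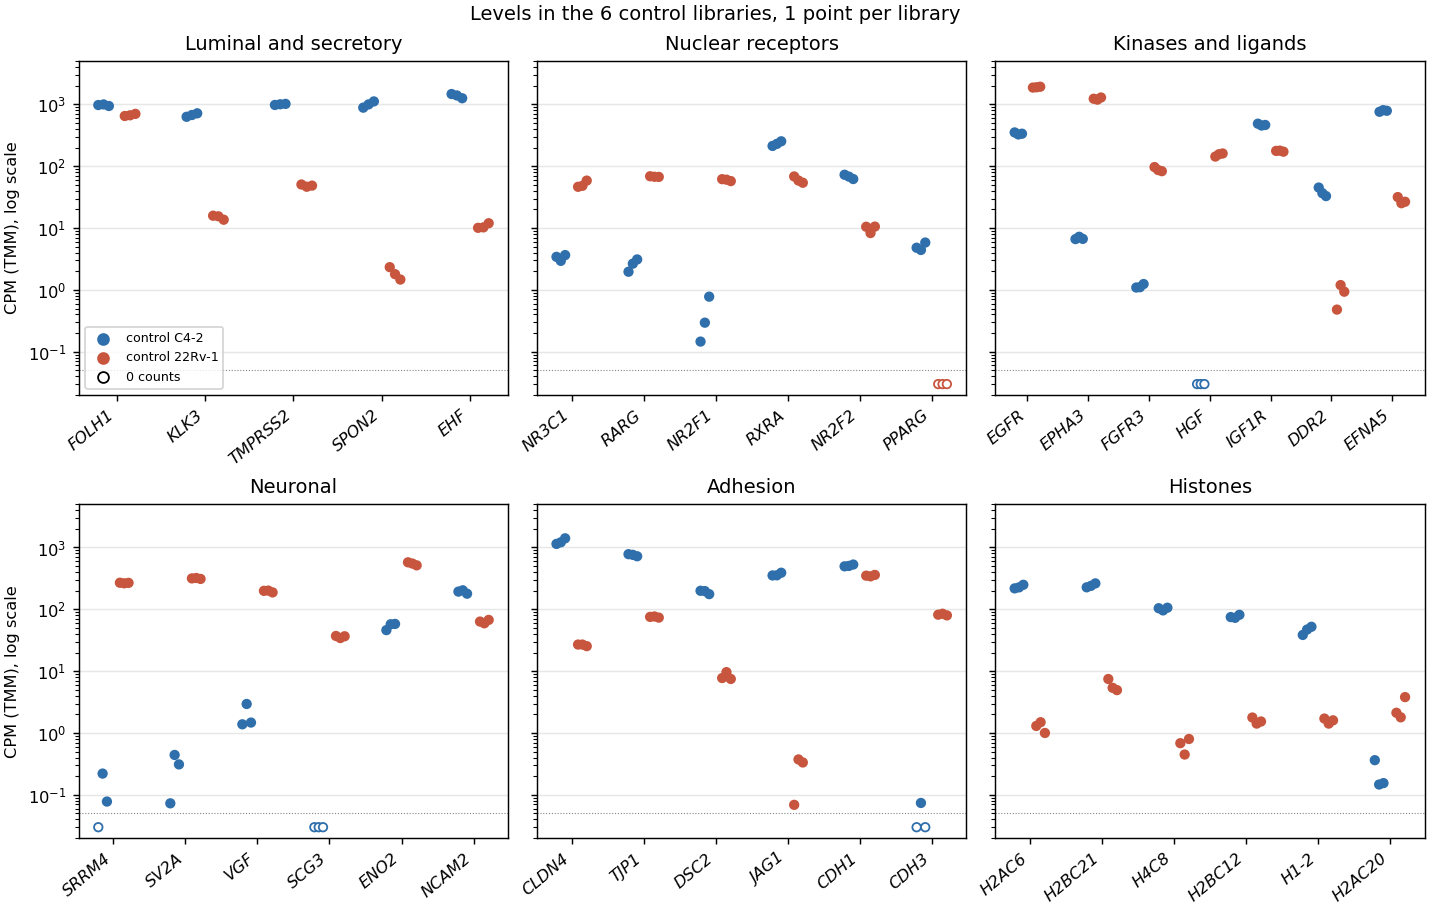
CPM (TMM, log axis) of 36 named genes in each of the 3 control C4-2 (blue) and 3 control 22Rv-1 libraries (red); points are single libraries, and open points under the dotted line are libraries with 0 counts. The 36 genes were chosen, in part after their values were seen, and 83.4% of all genes tested were called. For each gene shown the points of one line lie wholly above those of the other. They range from 1.45-fold for FOLH1 to 0 counts on one side for HGF, SCG3 and PPARG.

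Of 38 nuclear receptors tested, 16 were higher in 22Rv-1 and 16 in C4-2, 84.2% in all, which is near the 83.4% over all genes. NR3C1, the glucocorticoid receptor, had 3.42, 2.95 and 3.65 CPM in C4-2 and 46.4, 48.1 and 58.4 CPM in 22Rv-1 (log2 3.93 ± 0.13, edgeR adjusted p = 9.71e-26). RARG, a retinoic acid receptor, had 1.97, 2.65 and 3.11 CPM in C4-2 and 68.7, 67.4 and 67.1 CPM in 22Rv-1 (log2 4.72 ± 0.12). The orphan receptor NR2F1 had 16 counts over the C4-2 libraries and 2568 over the 22Rv-1 libraries, a ratio of 166 times (interval 102 to 292). Here and below such an interval is an exact 95% counting interval on total counts, and covers counting error only. Its paralog NR2F2 lay the other way, with 72.6, 67.8 and 62.0 CPM in C4-2 and 10.5, 8.30 and 10.6 CPM in 22Rv-1 (log2 -2.78 ± 0.10).

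HNF4G, a receptor of liver, gut and kidney, had 28 counts in C4-2 and 2324 in 22Rv-1, a ratio of 86.1 times (interval 59.4 to 129.9). RORB, a retinoid-related orphan receptor, had 12 and 590 counts, a ratio of 51.0 times (interval 28.98 to 99.3). PPARG, the fatty-acid receptor of fat and luminal epithelium, was found in C4-2 alone among the controls, at 4.80, 4.42 and 5.83 CPM against 0 counts, at least 64.6-fold higher. RXRA, the common partner of retinoid, vitamin D and PPAR receptors, had 231 ± 20.1 CPM in C4-2 and 60.2 ± 7.29 CPM in 22Rv-1. Per gene length, NR3C1 reached 5.68 FPKM in 22Rv-1 and 0.335 FPKM in C4-2.

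Steroid enzymes also lay on both sides, with 11 of 26 higher in 22Rv-1 and 14 in C4-2. CYP11A1, which makes pregnenolone from cholesterol as the entry step of steroid synthesis, had 82.7, 96.3 and 104.8 CPM in C4-2. The 22Rv-1 libraries held 1 count of it against 3792 counts in C4-2, a ratio of 3655 times (interval 656 to 144421). CYP1B1, an oestrogen hydroxylase, was the largest difference of the list towards 22Rv-1 among members above 5 CPM, with 0, 0.074 and 0.233 CPM in C4-2 and 11.6, 11.8 and 11.9 CPM in 22Rv-1.

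Growth factor receptors leaned to 22Rv-1. Receptor tyrosine kinases span the membrane, bind a ligand outside and phosphorylate partners inside. Of 39 tested, 23 were higher in 22Rv-1 and 13 in C4-2, with a median log2 difference of 0.95. EPHA3, a receptor for membrane-bound ephrin-A ligands, had 6.62, 7.22 and 6.68 CPM in C4-2 and 1231, 1189.9 and 1289.8 CPM in 22Rv-1 (log2 7.50 ± 0.08, edgeR adjusted p = 2.14e-40). EFNA5, one of its ligands, was the reverse, with 757, 805 and 787 CPM in C4-2 and 31.7, 25.2 and 26.6 CPM in 22Rv-1 (log2 -4.81 ± 0.07). EPHA3 and EFNA5 thus lay on opposite sides in all 6 libraries.

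EGFR had 351, 326 and 335 CPM in C4-2 and 1865, 1886 and 1924 CPM in 22Rv-1 (log2 2.49 ± 0.05). Its ligands EGF and TGFA were higher in C4-2, EGF at 20.3 ± 0.723 against 0.628 ± 0.049 CPM and TGFA at 20.7 ± 2.07 against 1.40 ± 0.047 CPM. Paralogous receptors could lie on opposite sides. DDR1, a collagen receptor, had 143 ± 10.3 CPM in C4-2 and 838 ± 56.1 CPM in 22Rv-1, while the related DDR2 had 45.1, 36.6 and 32.9 CPM in C4-2 and 0.480, 1.196 and 0.935 CPM in 22Rv-1. FGFR3 had 1.09, 1.10 and 1.24 CPM in C4-2 and 96.7, 86.5 and 83.0 CPM in 22Rv-1, while FGFR2 had 258 counts in C4-2 and 3 in 22Rv-1, a ratio of 82.9 times (interval 28.1 to 405). In both pairs one paralog was higher in 22Rv-1 and the other in C4-2. DDR1 and FGFR3 were chosen after their values were seen, so these pairs do not show how often paralogs part. ERBB4 was at 0 counts in C4-2 and at 3.91, 3.21 and 5.54 CPM in 22Rv-1, at least 63.3-fold higher. IGF1R, the insulin-like growth factor receptor, was higher in C4-2, with 468 ± 16.5 CPM against 175 ± 3.53 CPM in 22Rv-1.

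HGF, the ligand of the MET receptor, led the genes found in 22Rv-1 alone among the controls. It had 0 counts in all 3 C4-2 libraries and 143, 156 and 160.4 CPM in 22Rv-1, at least 2274-fold higher. The table places the gene at chr7:81699010-81770438 (GRCh38). MET stood at 1.09, 1.18 and 1.09 CPM in C4-2 and 9.46, 8 and 11.8 CPM in 22Rv-1 (log2 3.11 ± 0.23), so ligand and receptor were both higher in 22Rv-1, the receptor at a low level. GDNF, a ligand of the RET complex, had 4 counts in C4-2 and 353 in 22Rv-1, a ratio of 91.5 times (interval 35.4 to 338). VEGFA, the angiogenic growth factor, had 405 ± 30.4 CPM in C4-2 and 1789 ± 33.3 CPM in 22Rv-1. Of 33 ligands tested, 17 were higher in 22Rv-1 and 11 in C4-2.

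Of 33 genes that act inside the cell below these receptors 16 were higher in 22Rv-1 and 13 in C4-2, 87.9% in all against 83.4% over all genes. IRS2, the docking protein of insulin and IGF receptors, had 28.97, 28.96 and 27.5 CPM in C4-2 and 608, 615 and 604 CPM in 22Rv-1 (log2 4.42 ± 0.06). SPRY4 and DUSP6, feedback inhibitors of the MAPK path, were named for the size of their differences. The activity of the path was not tested. SPRY4 had 1 count in C4-2 and 988 in 22Rv-1, a ratio of 1025 times (interval 184 to 40522), and DUSP6 had 26 and 446, a ratio of 17.8 times (interval 11.98 to 27.5). PIK3CD, a catalytic PI3-kinase subunit best known in leukocytes, was the reverse, with 445, 456 and 468 CPM in C4-2 and 0.754, 0.224 and 0.735 CPM in 22Rv-1, a ratio of 707 times (interval 479 to 1092) towards C4-2. Over the list of PI3K and MAPK regulators 16 of 33 were higher in 22Rv-1 and 13 in C4-2.

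ETS factors of the PEA3 group, known to be induced by MAPK signalling, were all 3 higher in 22Rv-1. ETV1 had 0, 0.368 and 0.155 CPM in C4-2 and 44.1, 41.0 and 52.96 CPM in 22Rv-1, that is 7 against 1984 counts and a ratio of 294 times (interval 142 to 732). LNCaP cells, the parents of C4-2, are known for a rearranged and highly expressed ETV1 gene, and the control C4-2 libraries did not show that expression. ETV4 had 17 and 1024 counts with a ratio of 62.5 times (interval 38.8 to 108), and ETV5 had 1.46, 0.516 and 2.33 CPM in C4-2 and 87.3, 85.9 and 84.8 CPM in 22Rv-1 (log2 5.91 ± 0.15). Over the whole family, 13 of 23 were higher in 22Rv-1 and 9 in C4-2, EHF by far the most.

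Neuroendocrine and neuronal genes were mostly higher in 22Rv-1. These genes encode vesicle cargo, vesicle fusion proteins and splicing factors of neurons, and mark prostate tumours with neuroendocrine features. Of 25 tested, 20 were higher in 22Rv-1 and 4 in C4-2, with a median log2 difference of 3.64. Of the list's 36 genes, the other 11 were too low in every group to be tested. SRRM4, a neural splicing factor, had 4 counts over the C4-2 libraries and 269, 263 and 268 CPM in 22Rv-1, a ratio of 2970.0 times (interval 1160.0 to 10902). SV2A, a synaptic vesicle membrane protein, had 0.073, 0.442 and 0.311 CPM in C4-2 and 316, 321 and 310.0 CPM in 22Rv-1, a ratio of 1277 times (interval 714 to 2560.0). VGF, a neuropeptide precursor, had 1.38, 2.95 and 1.48 CPM in C4-2 and 199, 201 and 188 CPM in 22Rv-1 (log2 6.65 ± 0.13).

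The granins CHGB and SCG3 were at 0 counts in C4-2 and at 19.4 ± 1.16 and 36.0 ± 1.49 CPM in 22Rv-1, at least 288-fold and 536-fold higher. The more widely used marker CHGA was low in both, at 0.510, 0.516 and 0.078 CPM in C4-2 and 4.32, 5.23 and 4.67 CPM in 22Rv-1. ENO2, neuron-specific enolase, had 53.8 ± 6.70 CPM in C4-2 and 546 ± 30.8 CPM in 22Rv-1, and SYP, synaptophysin, had 4.13 ± 0.512 and 33.7 ± 4.27 CPM. INSM1 and NEUROD1, factors that drive neuroendocrine fate, were at 0 counts in C4-2 and at 1 and 3 counts over the 22Rv-1 libraries. A count of 0 over the 3 libraries of a line allows up to 3 counts. The 4 members higher in C4-2 were NCAM2 (192 ± 12.1 against 63.4 ± 3.98 CPM), DDC (14.4 ± 1.58 against 2.90 ± 0.232 CPM), DLL3 (16.5 ± 1.60 against 3.80 ± 1.27 CPM) and UCHL1, at 22 against 5 counts. The call of UCHL1 was lost without C4-2 replicate 1 (log2 -0.92, edgeR adjusted p = 0.421), without 22Rv-1 replicate 1 (log2 -1.90, edgeR adjusted p = 0.0653) and without 22Rv-1 replicate 2 (log2 -1.64, edgeR adjusted p = 0.083).

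Epithelial junction genes leaned to C4-2. Tight junctions are built of claudins, occludin and their scaffolds, and desmosomes of cadherins such as DSC2. Of 30 adhesion genes tested, 21 were higher in C4-2 and 7 in 22Rv-1 (median log2 -1.37). CLDN4 had 1141, 1212 and 1405 CPM in C4-2 and 26.9, 26.9 and 25.4 CPM in 22Rv-1 (log2 -5.57 ± 0.07). TJP1, the scaffold ZO-1, had 778, 759.5 and 720.4 CPM in C4-2 and 75.4, 76.6 and 73.4 CPM in 22Rv-1 (log2 -3.32 ± 0.06). DSC2 had 191 ± 12.9 CPM in C4-2 and 8.29 ± 1.18 CPM in 22Rv-1, and RAB25, an epithelial recycling GTPase, had 55.0, 55.9 and 67.9 CPM in C4-2 and 0.411, 0.598 and 0.401 CPM in 22Rv-1. E-cadherin, CDH1, differed little beside these, with 509 ± 17.9 CPM in C4-2 and 350.2 ± 9.25 CPM in 22Rv-1. P-cadherin, CDH3, was nearly exclusive to 22Rv-1, with 1 count in C4-2 and 81.9, 84.8 and 79.7 CPM in 22Rv-1. Among members higher in 22Rv-1, the epithelial splicing factor ESRP1 had 111 ± 2.85 CPM in C4-2 and 421 ± 14.4 CPM in 22Rv-1.

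Mesenchymal genes had no single direction, with 9 of 20 higher in 22Rv-1 and 8 in C4-2. TWIST1, a factor of mesenchymal transition, had 1 count in C4-2 and 645 in 22Rv-1, a ratio of 669 times (interval 119.7 to 26468). Vimentin, VIM, had 1.02, 1.62 and 0.621 CPM in C4-2 and 41.0, 39.2 and 44.4 CPM in 22Rv-1, and galectin LGALS1 had 0.299 ± 0.01 and 33.5 ± 3.25 CPM. ZEB1, a repressor of epithelial genes, lay the other way, with 2.33, 2.73 and 1.17 CPM in C4-2 and 0 counts in 22Rv-1, at least 27.0-fold higher in C4-2. COL6A1, a collagen VI chain, had 307 ± 21.9 CPM in C4-2 and 52.0 ± 3.90 CPM in 22Rv-1.

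Of 13 basal markers 6 were higher in 22Rv-1 and 5 in C4-2, with a median log2 difference of 0.82 (2.26 without C4-2 replicate 3). With limma on log2(FPKM + 1) the counts were 0 and 3 of 3 tested. KRT15, a basal keratin, had 0 counts in C4-2 and 258 in 22Rv-1, at least 89.2-fold higher there. The basal master factor TP63 was at 3 counts in C4-2 and 0 in 22Rv-1. JAG1, a NOTCH ligand, had 353, 355 and 390.3 CPM in C4-2 and 0.069, 0.374 and 0.334 CPM in 22Rv-1, a ratio of 1287 times (interval 719 to 2579) towards C4-2. LAMA3, a laminin chain of the basement membrane, had 145 ± 0.627 CPM in C4-2 and 1.98 ± 0.280 CPM in 22Rv-1. KRT8 and KRT18 are the keratins of luminal cells, and per gene length they stood at 50.8 and 62.1 FPKM in C4-2 and 48.1 and 38.4 FPKM in 22Rv-1. Of 13 keratins tested, 4 were higher in 22Rv-1 and 6 in C4-2, with KRT19 at 1.31, 2.14 and 1.94 CPM in C4-2 and 78.2, 69.8 and 69.3 CPM in 22Rv-1. KRT8 had 346, 354 and 442 CPM in C4-2 and 334, 323 and 318 CPM in 22Rv-1 (log2 -0.23 ± 0.06), and without C4-2 replicate 3 its call was lost (log2 -0.10, edgeR adjusted p = 0.0605).

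Of 30 surface proteins used as therapy targets 17 were higher in C4-2 and 10 in 22Rv-1. The counts were 15 and 11 with total-count scaling, and 11 and 9 of 22 tested with limma on log2(FPKM + 1). FOLH1, the prostate-specific membrane antigen, had 973, 996 and 939 CPM in C4-2 and 647, 665 and 701 CPM in 22Rv-1 (log2 -0.53 ± 0.05). STEAP1, a metalloreductase, had 508 ± 57.6 CPM in C4-2 and 213 ± 15.7 CPM in 22Rv-1. TRPM8, a cold-sensing channel of luminal cells, had 516 counts in C4-2 and 4 in 22Rv-1, a ratio of 124 times (interval 48.3 to 458). NECTIN4, an adhesion protein and antibody-conjugate target, had 12.7 ± 1.05 CPM in C4-2 and 0.678 ± 0.074 CPM in 22Rv-1. TMEFF2, a transmembrane protein with follistatin domains, was the main exception, with 0.510, 0.295 and 0.388 CPM in C4-2 and 265, 268 and 269 CPM in 22Rv-1, a ratio of 744 times (interval 458 to 1302). In the other 6 libraries it stood at 8.94 CPM in C4-2 and 22.5 CPM in 22Rv-1.

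Developmental signalling genes leaned to 22Rv-1. Of 44 WNT pathway genes 28 were higher in 22Rv-1 and 10 in C4-2, and of 39 TGF-beta and BMP genes 22 and 9. RSPO4, a WNT agonist, had 0.073, 0.074 and 0.233 CPM in C4-2 and 28.2, 27.5 and 24.6 CPM in 22Rv-1, a ratio of 238 times (interval 102 to 735). WNT4 lay the other way, with 6.70, 7.07 and 7.77 CPM in C4-2 and 0.411, 0.075 and 0.067 CPM in 22Rv-1. BMP2 had 5 counts in C4-2 and 1510 in 22Rv-1, a ratio of 313 times (interval 134 to 966). ID1, a target of BMP signalling, had 7.28, 5.97 and 6.37 CPM in C4-2 and 103, 90.4 and 93.5 CPM in 22Rv-1 (log2 3.87 ± 0.10). TGFBR2, the receptor that binds TGF-beta, had 4 and 305 counts, a ratio of 79.1 times (interval 30.6 to 292). The coreceptor TGFBR3 was the reverse, with 128, 118 and 119 CPM in C4-2 and 3.22, 4.71 and 2.94 CPM in 22Rv-1 (log2 -5.08 ± 0.12). In the NOTCH list, 9 of 24 were higher in 22Rv-1 and 11 in C4-2. HES6, a helix-loop-helix factor, had 268 ± 23.5 CPM in C4-2 and 11.97 ± 0.497 CPM in 22Rv-1.

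HOX genes record position along the body axis and differ between cell lineages. Of 27 tested, 14 were higher in 22Rv-1 and 7 in C4-2 (median log2 2.52, and 3.48 without C4-2 replicate 3). With limma on log2(FPKM + 1), which tested 12 of them, 5 were higher in 22Rv-1 and 6 in C4-2. HOXB5 and HOXB7 were at 0 counts in C4-2 and at 6.92, 5.68 and 5.74 and 6.65, 8.97 and 7.95 CPM in 22Rv-1, at least 90.9-fold and 116.2-fold higher. Of the HOXC cluster, HOXC13 and HOXC12 were higher in C4-2, HOXC13 at 30.6, 34.9 and 29.9 CPM in C4-2 and 2.88, 2.84 and 2.87 CPM in 22Rv-1, and HOXC12 at 21.8 ± 2.79 and 1.66 ± 0.739 CPM. Of 12 SOX factors 8 were higher in 22Rv-1 and 3 in C4-2, and with limma on log2(FPKM + 1) 3 and 3 of 6 tested. SOX5 was at 0 counts in C4-2 and 6.97 ± 0.419 CPM in 22Rv-1, and SOX8 at 14.9 ± 2.703 CPM in C4-2 and 0.293 ± 0.255 CPM in 22Rv-1.

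Cell cycle genes were higher in control 22Rv-1 almost without exception. Of 39 mitosis genes 38 passed the test in that direction and 0 in the other, with a median log2 difference of 4.96. TOP2A, a topoisomerase of dividing cells, had 2.18, 0.884 and 1.94 CPM in C4-2 and 292, 293 and 321 CPM in 22Rv-1. MKI67, the Ki-67 antigen, had 6.26, 6.71 and 4.97 CPM in C4-2 and 214, 224 and 231 CPM in 22Rv-1 (log2 5.21 ± 0.09). In the other 6 libraries the same mitosis genes had a median log2 difference of 0.84, and MKI67 stood at 78.4 CPM in C4-2 and 148 CPM in 22Rv-1. Replication genes gave 38 of 39 higher in 22Rv-1, with a median log2 difference of 2.67 in the controls and 0.93 in the other libraries. MKI67 was thus lowest in the control C4-2 libraries of the 4 groups.

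Homologous recombination genes, many of which are transcribed in S phase, mostly lay the same way. The part of the cell cycle in this was not tested. Of 29 homologous recombination genes, 24 were higher in 22Rv-1 and 2 in C4-2 in the controls (median log2 1.22), against 13 and 8 in the other libraries (median log2 0.21). BRCA1 had 4.44, 4.79 and 4.97 CPM in C4-2 and 189, 192 and 199 CPM in 22Rv-1. In the same controls 6 of 11 mismatch repair genes were higher in 22Rv-1 and 4 in C4-2. CCND1, cyclin D1, had 144, 154 and 158 CPM in C4-2 and 2365, 2348 and 2329.5 CPM in 22Rv-1 (log2 3.95 ± 0.06), and its partner kinase CDK6 had 2.48, 2.28 and 2.95 and 50.02, 46.6 and 54.9 CPM. Both stayed higher in 22Rv-1 in the other libraries, CCND1 at 269 against 2119 CPM. Among tumour suppressors, KDM6A, a histone H3 demethylase encoded on the X chromosome, had 524, 501 and 496 CPM in C4-2 and 55.6, 57.5 and 58.0 CPM in 22Rv-1 (log2 -3.15 ± 0.06).

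Replication-dependent histone genes formed a block of neighbouring genes higher in C4-2. They sit in clusters on chromosomes 6 and 1, are transcribed in S phase, and their messages end in a stem-loop and mostly carry no poly(A) tail. The list was taken after the windows of neighbouring genes below had been seen. Of 65 such genes in the table, 33 were high enough to be tested, and 32 of these were higher in C4-2, with a median log2 difference of -4.73. All 65 together summed to 898 to 979 CPM in C4-2 and 30.4 to 32.2 CPM in 22Rv-1. H2BC21 had 227, 239.8 and 262 CPM in C4-2 and 7.47, 5.38 and 4.94 CPM in 22Rv-1 (log2 -5.35 ± 0.10). H2AC6 had 218, 226 and 249 CPM in C4-2 and 1.30, 1.50 and 1.00 CPM in 22Rv-1 (log2 -7.51 ± 0.12).

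The linker histone H1-2 had 45.9 ± 6.91 CPM in C4-2 and 1.58 ± 0.148 CPM in 22Rv-1, and H4C8 had 102 ± 5.37 and 0.645 ± 0.180 CPM. The single exception was H2AC20, at 0.364, 0.147 and 0.155 CPM in C4-2 and 2.12, 1.79 and 3.81 CPM in 22Rv-1. In the other 6 libraries 32 of 33 were higher in C4-2 as well (median log2 -4.16). It ran opposite to the replication genes of S phase. Histone genes of one class share much of their sequence, so values of single genes are uncertain.

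The promoters of 3 of these genes are shown because the members moved together. Each is the 250 bases before the RefSeq transcription start (GRCh38.p14), 5′ to 3′ on the gene's strand, with each CCAAT and TATAAA motif, searched on both strands (ATTGG and TTTATA are their reverse complements), in capitals, where overlapping matches run together. H2AC6 is at chr6:26123922-26124171 on the plus strand, H2BC12 at chr6:27146859-27147108 and H2BC21 at chr1:149886683-149886932, both on the minus strand.
H2AC6: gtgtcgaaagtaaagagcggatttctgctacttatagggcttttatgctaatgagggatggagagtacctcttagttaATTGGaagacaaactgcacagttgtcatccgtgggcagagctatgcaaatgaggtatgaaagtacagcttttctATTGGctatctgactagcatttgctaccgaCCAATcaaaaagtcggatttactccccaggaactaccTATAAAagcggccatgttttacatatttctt
H2BC12: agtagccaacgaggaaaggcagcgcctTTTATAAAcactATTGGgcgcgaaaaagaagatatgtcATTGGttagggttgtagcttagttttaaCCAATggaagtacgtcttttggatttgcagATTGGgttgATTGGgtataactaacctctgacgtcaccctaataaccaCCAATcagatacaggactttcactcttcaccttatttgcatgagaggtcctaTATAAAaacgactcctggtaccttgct
H2BC21: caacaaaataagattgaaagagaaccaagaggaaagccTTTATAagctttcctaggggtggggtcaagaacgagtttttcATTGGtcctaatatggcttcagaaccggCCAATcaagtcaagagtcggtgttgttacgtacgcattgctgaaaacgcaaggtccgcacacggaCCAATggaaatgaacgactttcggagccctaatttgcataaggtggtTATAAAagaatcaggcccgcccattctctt
Of the 65 histone genes, 60 had a promoter in the RefSeq table. CCAAT was in 85.0% of these against 33.0% of all 27305 promoters, and TATAAA in 68.3% against 11.1%. Both motifs stood together in 60.0% against 4.0%. A match is a description of the letters, not of binding.

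Ribosomal protein genes were higher in C4-2, 33 of 40 against 4, with a median log2 difference of -0.60 in the controls and 0.02 in the other 6 libraries. Mitochondrially encoded genes gave 10 of 13 higher in C4-2 (median -0.48, and -0.03 in the other libraries). Both belong to the library shares given above, in which C4-2 replicate 3 was the highest.

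**Figure D3:**
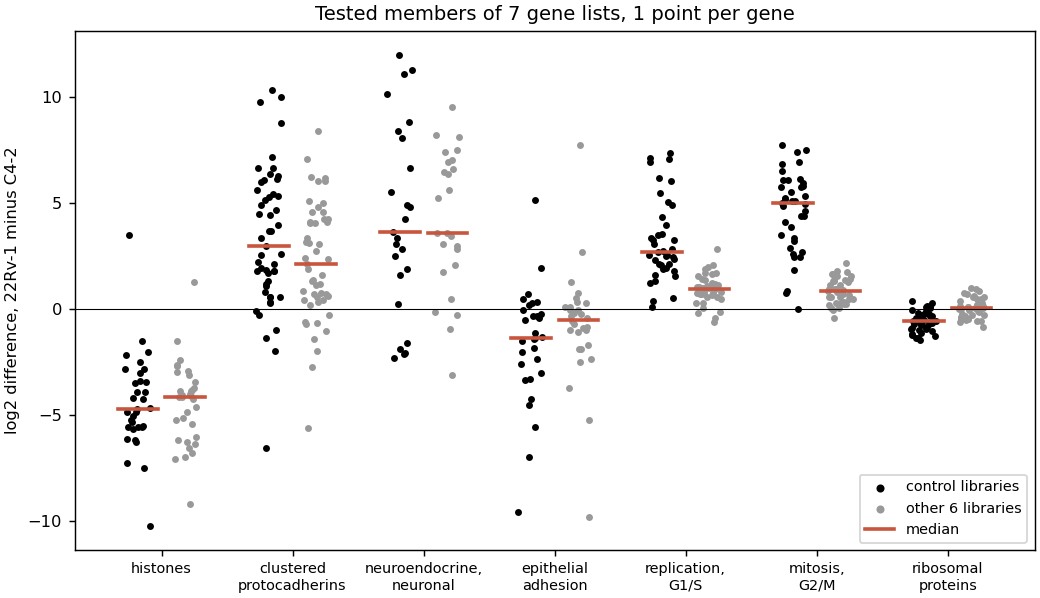
Log2 difference (22Rv-1 minus C4-2) of every tested member of 7 gene lists in the control libraries (black) and in the other 6 libraries (grey), with medians as red lines. The median of the neuronal genes is 3.64 in the controls and 3.56 in the other set, that of the histone genes -4.73 and -4.16 and that of the protocadherins 2.96 and 2.09, while the medians of the replication and mitosis genes drop from 2.67 to 0.93 and from 4.96 to 0.84.

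Immune genes had both directions. Antigen presentation gave 17 of 30 higher in C4-2 and 8 in 22Rv-1. B2M, the shared chain of class I molecules, had 256 ± 4.57 CPM in C4-2 and 134 ± 7.00 CPM in 22Rv-1. ULBP2, a stress ligand of natural killer cells, had 9.35 ± 0.721 and 0.630 ± 0.314 CPM. Interferon response genes gave 15 of 29 higher in 22Rv-1 and 10 in C4-2. BST2, tetherin, was at 0 counts in C4-2 and 5.89, 5.76 and 6.75 CPM in 22Rv-1, at least 91.3-fold higher, and IRF7 lay the other way at 37.5 ± 4.65 and 8.94 ± 1.65 CPM.

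Cytokine receptors (13 higher in 22Rv-1 and 17 in C4-2 of 40) and receptors for transmitters and peptides (20 and 19 of 44) had medians of -0.005 and -0.02, which became 0.14 and 0.12 with total counts. Single receptors differed widely. PRLR, the prolactin receptor, had 2 counts in C4-2 and 1124 in 22Rv-1, a ratio of 583 times (interval 161 to 4820.0). IFNLR1, a receptor chain for lambda interferons, had 3 and 1071 counts, a ratio of 370.3 times (interval 126 to 1799). EDNRA, the endothelin receptor, had 1 and 821 counts, a ratio of 852 times (interval 152 to 33679). S1PR3, a sphingosine phosphate receptor, was the reverse, with 63.2, 64.6 and 69.0 CPM in C4-2 and 0.274, 0.299 and 0.267 CPM in 22Rv-1.

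Cancer-testis antigens, germ cell genes reactivated in tumours, distinguished the lines by member. Of 23 tested, 12 were higher in C4-2 and 9 in 22Rv-1. PAGE1 had 194, 211 and 219 CPM in C4-2 and 2 counts in 22Rv-1, a ratio of 4020.0 times (interval 1112 to 33199). CTAG2 had 24 counts in C4-2 and 121, 133 and 109 CPM in 22Rv-1, a ratio of 224 times (interval 150.0 to 349). GAGE2A had 2172 counts in C4-2 and 1 count in 22Rv-1. Families such as GAGE, MAGEA and SSX hold near-identical copies, so the family and not the copy is what the counts show.

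Genes restricted to a line were taken as those with at most 3 counts over the 3 control libraries of one line and a mean of at least 5 CPM in the other. This gave 213 genes in 22Rv-1 and 83 in C4-2, with Y-linked genes left out. It is a description with no test, since low counts chose the genes. Among the 10 highest in 22Rv-1 were HGF, SSX3, CPLX2, CDH6, PRRX2, NID1, ALDH7A1, PAX5 and CDH3. They mix a growth factor, a cancer-testis antigen, a synaptic protein (CPLX2), cadherins (CDH6, CDH3), homeobox and paired-box factors (PRRX2, PAX5) and a basement membrane protein (NID1). CPLX2 had 133, 141 and 143 CPM in 22Rv-1 and 3 counts in C4-2. PAX5, best known as the identity factor of B cells, had 95.3, 91.1 and 97.2 CPM in 22Rv-1 and 1 count in C4-2. PRRX2, a mesenchymal homeobox gene, had 107, 119 and 94.7 CPM in 22Rv-1 and 0 counts in C4-2, at least 1582-fold higher.

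The 10 highest in C4-2 were ACKR3, PAGE1, PLXDC2, PTPRM, CD177, NLGN4X, CYP11A1, PLA2G2A, PDE10A and SLC9A2. ACKR3, the scavenging chemokine receptor CXCR7, at chr2:236567787-236582354, had 249, 249.6 and 284 CPM in C4-2 and 1 count over the 22Rv-1 libraries, a ratio of 10082 times (interval 1809 to 398272). PTPRM, a receptor tyrosine phosphatase of cell contacts, had 115.7, 115 and 106 CPM in C4-2 and 0 counts in 22Rv-1, at least 1447-fold higher. CD177, a surface glycoprotein best known on neutrophils, had 91.6, 105.2 and 115.9 CPM in C4-2 and 0 counts in 22Rv-1, at least 1343-fold higher. NLGN4X, a synaptic adhesion protein, had 104.9, 93.6 and 90.2 CPM in C4-2 and 0 counts in 22Rv-1. Ranges far apart were set by the rule that chose these genes, and are not a further result.

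In the other 6 libraries 74 of the 213 genes and 30 of the 83 met the same rule. More than 3 counts were found in the low line's other libraries for 114 and 37 of them. The 213 genes summed to 66, 97 and 80 counts in the C4-2 controls and to 488, 581 and 434 counts in C4-2 with ARv7, against 64908 to 73021 counts in any 22Rv-1 library. The 83 genes summed to 26, 26 and 23 counts in the 22Rv-1 controls and to 290, 307 and 344 after ARv7 depletion, against 26209 to 35072 in C4-2. The rule chose low counts in the controls, and the part of that choice in these higher sums was not tested.

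Promoters of restricted genes were compared for CG dinucleotides in the 250 bases before the start. Of the 213 genes 148 had a promoter in the table, with a median of 16 CG dinucleotides, and of the 83 genes 66 had one, with a median of 9. Over 11345 tested genes the median was 20. At most 4 were found in 16.9% and 33.3% of the restricted promoters and in 9.2% of those of tested genes. Over all 27305 promoters of the table the median was 11, and 35.0% held at most 4. Promoters of 2 of the leading genes of each line that were in the table are shown with each CG in capitals. They are HGF at chr7:81770048-81770297 (minus strand), CPLX2 at chr5:175796283-175796532 (plus), PAGE1 at chrX:49695985-49696234 (minus) and PLXDC2 at chr10:19816182-19816431 (plus), with 6, 6, 9 and 14 CG dinucleotides.
HGF: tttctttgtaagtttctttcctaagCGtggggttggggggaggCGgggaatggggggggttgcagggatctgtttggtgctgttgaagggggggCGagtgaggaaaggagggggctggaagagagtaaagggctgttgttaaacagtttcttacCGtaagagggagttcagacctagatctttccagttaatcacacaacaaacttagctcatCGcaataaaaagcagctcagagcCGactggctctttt
CPLX2: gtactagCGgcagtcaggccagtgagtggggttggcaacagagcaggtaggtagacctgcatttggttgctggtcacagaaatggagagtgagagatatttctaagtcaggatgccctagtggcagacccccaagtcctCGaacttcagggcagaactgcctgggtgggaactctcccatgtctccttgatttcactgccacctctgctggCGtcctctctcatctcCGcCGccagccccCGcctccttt
PAGE1: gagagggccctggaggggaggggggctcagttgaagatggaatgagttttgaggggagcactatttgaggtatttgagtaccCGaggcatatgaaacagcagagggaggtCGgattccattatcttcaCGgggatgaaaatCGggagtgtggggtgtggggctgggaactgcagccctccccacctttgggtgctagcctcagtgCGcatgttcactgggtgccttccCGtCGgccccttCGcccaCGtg
PLXDC2: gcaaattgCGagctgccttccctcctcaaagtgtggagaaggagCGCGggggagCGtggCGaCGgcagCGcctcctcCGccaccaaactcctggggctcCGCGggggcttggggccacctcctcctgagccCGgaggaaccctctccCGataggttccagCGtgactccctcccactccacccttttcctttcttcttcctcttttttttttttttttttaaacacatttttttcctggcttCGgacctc
The 22Rv-1 pair stood below the median of their own set and the C4-2 pair at or above theirs, so single sequences did not follow the medians.

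Position in the genome also separated the lines. Chromosome 8 had a median log2 difference of 0.79 over 477 tested genes and chromosome 12 one of 0.62 over 762. These were the highest, and 339 and 503 of their genes were higher in 22Rv-1. The lowest medians were -0.44 on X, -0.34 on 13 and -0.34 on 11. In the other 6 libraries the same chromosomes stood at 0.69 and 0.58 (8 and 12) and at -0.545, -0.30 and -0.31 (X, 13 and 11). These are descriptions with no test, and copy number was not measured here.

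**Figure D4:**
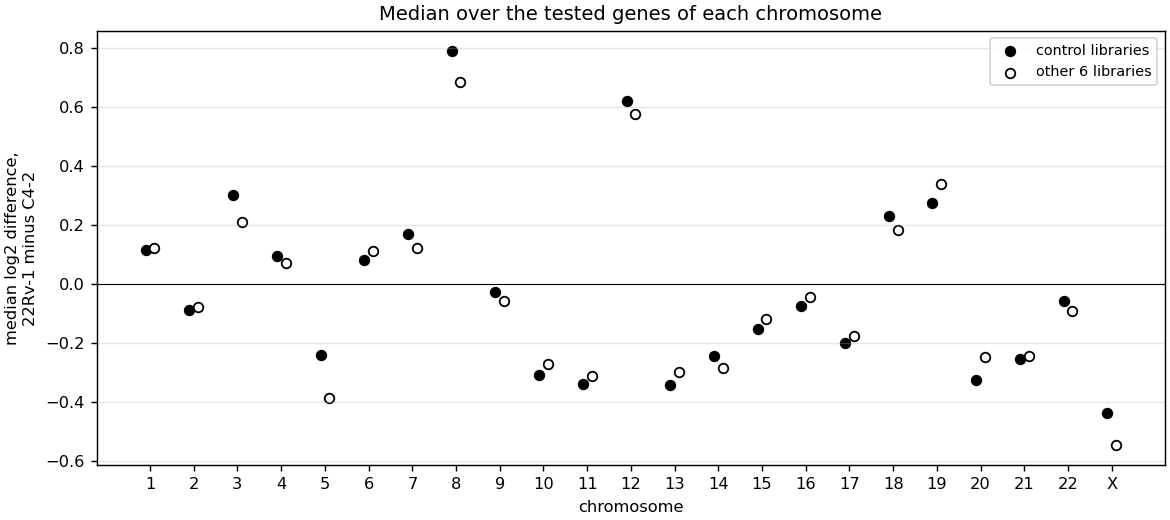
Median log2 difference (22Rv-1 minus C4-2) over the tested genes of each chromosome in the control libraries (filled) and the other 6 libraries (open). Chromosomes 8 and 12 are the highest in both sets, at 0.79 and 0.62 in the controls, and X the lowest, at -0.44.

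Over windows of 50 neighbouring tested genes, the highest median, 3.16, was at chr5:140698680-141512981, the clustered protocadherins, neuronal cell-surface cadherins. The list of these protocadherins was taken after their values had been seen, so its counts describe the window again. Of 51 tested protocadherins of the clusters, 41 were higher in 22Rv-1 and 4 in C4-2. PCDHA2 had 0 counts in C4-2 and 11.6, 10.7 and 11.6 CPM in 22Rv-1, at least 168-fold higher. PCDHGB5 lay the other way, with 15.9, 16.9 and 22.5 CPM in C4-2 and 0.206, 0.299 and 0.067 CPM in 22Rv-1. Genes of the alpha and gamma clusters share their last exons, so their counts are not independent. The next windows were chr6:75601509-93419559 (median 1.62, 41 of 50 higher in 22Rv-1) and chr8:22544986-29064764 (1.59, 40 of 50). The lowest, -2.84, was the histone cluster at chr6:26055740-28399734, with 36 of 50 genes higher in C4-2. Then came chr1:1216909-3796498 (-0.99, 40 of 50) and chrX:49269793-63351332 (-0.90, 37 of 50), which holds PAGE1 and GAGE2A.

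Runs of at least 3 neighbouring line-restricted genes were found at 3 places. PLA2G2A, PLA2G5 and PLA2G2F, secreted phospholipases at chr1:19975431-20150381, were restricted to C4-2, at 88.7 ± 5.73, 7.65 ± 0.941 and 7.40 ± 0.773 CPM and 0 counts in 22Rv-1. GPR162, P3H3 and GNB3 at chr12:6821624-6847393 were restricted to 22Rv-1, at 19.7 ± 2.81, 65.1 ± 3.50 and 27.4 ± 3.57 CPM. The table's intervals of GPR162 and P3H3 overlap, and the strand of the counts is not given, so their reads could not be told apart. The last run was PCDHA13, PCDHAC1 and PCDHAC2, whose intervals overlap.

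The comparison of the same lines in the other 6 libraries shares no library with the controls. There, 5805 genes (40.8%) were higher in 22Rv-1 and 5550 (39.0%) in C4-2. Of the 11875 genes called in the controls, 9306 were called in the same direction in the other libraries and 704 in the opposite one. Among genes at least 2-fold apart, 3162 of 3550 higher in 22Rv-1 and 2425 of 2828 higher in C4-2 kept their direction and their call. Fewer, 2489 and 1715, were also at least 2-fold apart in the other libraries. The list members are calls of any size, to be read against 9306 of 11875. Of those higher in 22Rv-1, 19 of 20 neuroendocrine genes and 19 of 23 receptor tyrosine kinases were at least 2-fold apart in the controls. For genes that far apart the share over all genes was 3162 of 3550. For neuroendocrine genes 20 of 20 higher in 22Rv-1 kept direction and call, and for receptor tyrosine kinases higher in 22Rv-1 20 of 23. For adhesion genes higher in C4-2 17 of 21 did so, which is near the share over all genes. Fewer did so for androgen targets higher in 22Rv-1 (2 of 8), homologous recombination genes higher in 22Rv-1 (13 of 24), mesenchymal genes higher in C4-2 (3 of 8), HOX genes higher in C4-2 (3 of 7) and ribosomal protein genes higher in C4-2 (15 of 33).

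Single androgen targets turned direction. FKBP5 stood at 615 CPM in C4-2 with ARv7 and 191 CPM in 22Rv-1 after ARv7 depletion (log2 -1.68). KLK3 kept its direction, at 2538 and 23.4 CPM. In the other libraries 33 of 38 androgen targets were higher in C4-2 and 3 in 22Rv-1.

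**Figure D5:**
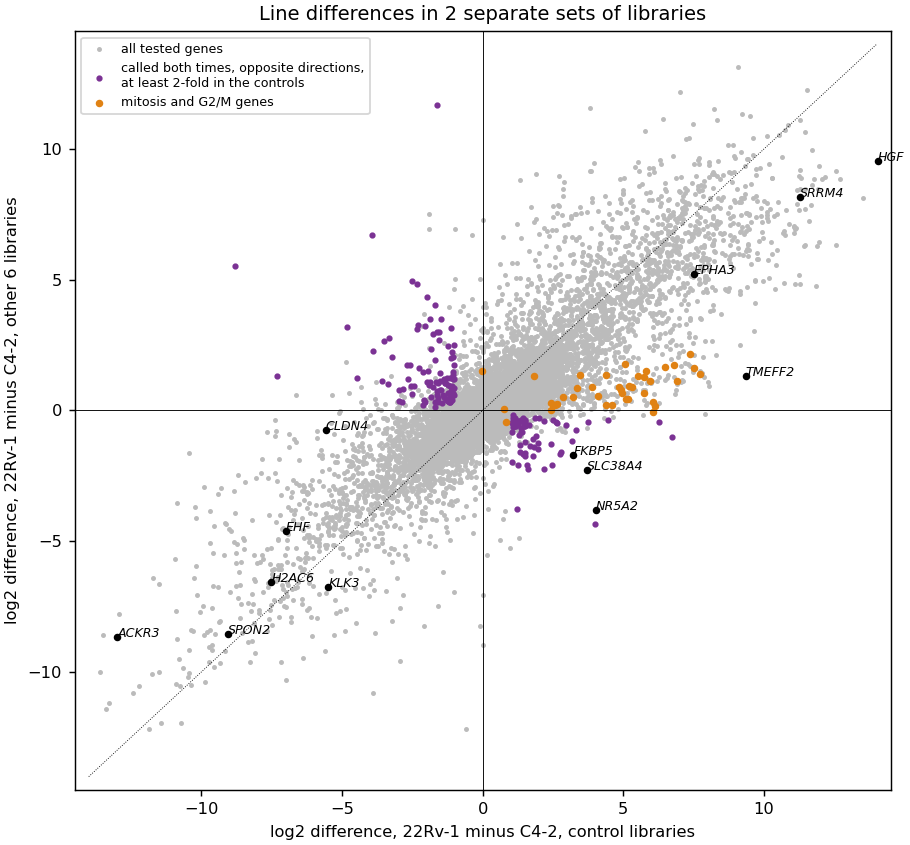
Log2 difference (22Rv-1 minus C4-2) of each tested gene in the control libraries (x axis) and in the other 6 libraries (y axis), with the line of equality dotted; the sets share no library. Purple points are the 174 genes at least 2-fold apart in the controls and called in the opposite direction in the other libraries, and orange points are mitosis genes, which have a median of 4.96 in the controls and 0.84 in the other set.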

How the data were processed

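RNA was extracted with TRIzol, and cDNA libraries were sequenced on an Illumina NovaSeq, per the labels' protocols. Reads were trimmed with Cutadapt 2.7, per the submitters' processing notes. The sources used here give no aligner, counter or strand. The authors deposited 1 table with read counts per gene and FPKM for all 12 libraries. The notes name hg18, but the table's coordinates are those of GRCh38: 19869 of 19876 IDs found in GENCODE 29 had a start or end within 10000 bp. Of 19974 lines, 1 without a gene ID was left out.

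Groups came from the sample titles. Counts were tested with edgeR 4.0.16 in R 4.3.3 (TMM, filterByExpr, quasi-likelihood F-test, Benjamini-Hochberg adjustment) over all 12 libraries. The test was checked on simulated data in which few genes differed. That check does not cover a comparison in which most genes differ, as here. Deposited FPKM served to compare levels between genes and, with limma 3.58.1, as an alternative; DESeq2 1.42.0 was another. Promoters were read from RefSeq (GRCh38.p14).

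The comparison, lists and genes were chosen with earlier results of these data known. Genes named were the largest differences over all genes, among line-restricted genes, in each list in both directions, and in the outermost windows. The histone and protocadherin lists and the genes B2M, CDH1, DDR1, EGFR, FGFR3, H1-2, H2BC21, ID1, IGF1R, MKI67, NR3C1, TJP1, TMPRSS2, TP63, VEGFA and VGF were chosen after their values were seen. CDH5, CHGA, COL1A1, FAP, FOLH1, FOXA1, INSM1, KRT8, LUM, NEUROD1 and SYP are named as cell type markers. Ratios in times and lower limits of folds, given for genes with few counts in a line, are on total counts with no scaling, 3 counts standing for 0. Some genes are not reported here.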

Additional observations from a re-analysis of the deposited data

Results flagged for a closer look

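For 7151 genes the difference between the lines itself differed between the control libraries and the other 6 libraries, by edgeR's test of the difference of the 2 log2 differences. Among the genes named, 3 passed that test and were called in opposite directions in the 2 sets, and no cause was tested. The log2 difference of FKBP5, an androgen target, went from 3.22 to -1.68, a difference of 4.90. SLC38A4 went from 3.69 to -2.27, a difference of 5.97. KRT8 turned the other way, from -0.23 to 0.71, a difference of -0.94.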

How the results depend on the processing

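The 11875 genes called in the controls became 7740 when a difference beyond 1.5-fold was tested (glmTreat), and the 5819 higher in C4-2 became 3645. With a mean of at least 5 CPM, at least 2-fold differences were 2267 higher in 22Rv-1 and 1864 in C4-2. With limma on log2(FPKM + 1) they were 2080 and 1347, and with a pseudocount of 0.1 the C4-2 count was 1654. Line-restricted genes of 22Rv-1 numbered 354 with at most 10 counts allowed in C4-2, 470 at a level of at least 1 CPM and 77 at 20 CPM. Those of C4-2 numbered 225 at 1 CPM and 32 at 20 CPM. The highest window median was 5.58 with 25 genes and 1.30 with 100, and the lowest -3.49 and -0.79. Leaving out each control library in turn gave 11640 to 11842 calls, and the comparison of the other 6 libraries, with 11355 calls, gave 11005 to 11082 without each of those. The replicate number as a block gave 11753 calls in the controls (5990 and 5763). Deviations of same-numbered libraries of the lines had correlations of -0.059, -0.014 and -0.09, and differently numbered ones -0.019 to 0.075. Such values cannot tell whether same-numbered dishes were handled together. Among the genes named, KRT8 lost its call, with total counts (log2 -0.08, edgeR adjusted p = 0.213), with limma on log2(FPKM + 1) (log2 -0.07, limma adjusted p = 0.298) and without C4-2 replicate 3. UCHL1 lost it without any of 3 single libraries. Of 84 counts of list members in a direction, 37 moved by over 1.5 times under some alternative, in 47 values, 33 of them with limma on log2(FPKM + 1), which tested fewer members. With it interferon response genes were 6 higher in 22Rv-1 and 5 in C4-2, and antigen presentation genes higher in C4-2 were 9, or 11 when fitted on the 6 control libraries alone. Ribosomal protein genes higher in 22Rv-1 were 2 in place of 4 without C4-2 replicate 1, C4-2 replicate 2 or 22Rv-1 replicate 2. A count of 0 over a line limits folds to the floor of 3 counts.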
